A study of Xenopus tropicalis with 26 samples.

Results

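9 genes whose products hold mTOR signaling back were followed through the change from blastula to early neurula in whole *Xenopus tropicalis* embryos, in high K+ medium and in control medium. The genes were chosen by symbol, for the known role of their products, but with earlier results of these data known. The study had already named *depdc5*, *stk11* and *akt1s1* among the mTOR pathway genes activated in high K+ in these same samples. They are *tsc1* and *tsc2*, *depdc5*, *nprl2* and *nprl3*, *akt1s1* and *deptor*, *stk11*, and *sesn1*. The 9 symbols match 10 of the 34192 genes listed, since *deptor* stands for gene26900 and gene30295. All 9 symbols had a gene that passed the filter on low values, which 15019 genes passed. The second *deptor* gene did not pass it, with a highest value of 0.288 in the high K+ samples and 0.310 in the control samples.

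mTOR is a protein kinase that drives protein synthesis and growth when nutrients and growth factors are present, and it works in a pair of complexes, mTORC1 and mTORC2. At the lysosome, mTORC1 is switched on by the small GTPase Rheb and is brought there by the Rag GTPases. In mammals the TSC complex turns Rheb off, GATOR1 turns the Rag side off when amino acids are short, the sestrins carry signals of amino acid shortage and stress to GATOR1, and LKB1 acts further upstream through the energy sensor AMPK. In the early frog embryo the transcripts present at the blastula stage are largely of maternal origin, and they are replaced as the zygotic genome becomes active.

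The high K+ embryos were kept in 10 mM KCl and the control embryos in 1/9X MR, both at 25 ºC. Samples of 10 pooled embryos were taken every 30 min from stage 8 to stage 13, which gave 13 high K+ samples and 13 control samples between 0 and 6 h. The study recorded depolarized cells in high K+ medium, for which its general methods give a higher KCl concentration. No membrane potential is reported for embryos in 10 mM KCl. The comparison asks which genes follow another course over time in this medium, which the study takes to be depolarizing. Each condition was followed in 1 time course with no biological replicates, so an SD over time points describes a course. All p-values take time points as replicates, although these are not independent samples. For the change over time they measure the scatter of neighboring time points. For the other comparisons they measure how the paired differences, or without pairing the values, varied along the course. Values are gene abundances corrected for transcript length and dinucleotide content on the concentration scale of the ERCC spike-in RNAs, and read depth is unknown. The correction was fitted to each condition on its own, so it cannot be told apart from the condition.

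The stage labels were checked against marker genes of the whole embryo. All 7 maternal transcripts examined were lower at 5 to 6 h than at 0 to 1 h in both conditions, while all 4 mesoderm genes, all 6 endoderm genes and 6 of 7 ectoderm genes found were higher. The median level of 43 spike-in RNAs ranged from −0.62 to 0.62 on the log2 scale and was higher in the high K+ sample at 10 of 13 time points, by 0.13 ± 0.37 (SD, n = 13). In RNA from whole embryos, a smaller number of expressing cells and less RNA in each cell cannot be told apart.

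Between high K+ and control embryos, 4 of the 9 genes were called, all 4 of them higher in high K+. These were *stk11*, *depdc5*, *akt1s1* and *tsc2*. All but *tsc2* had been named by the study from the same samples, so their calls are no separate support. A gene was called where separate Gaussian process curves for the conditions had a higher log-likelihood than 1 shared curve, that is, where the log-likelihood ratio (LR) was above 0. By this rule 38.9% of all tested genes were called, with 29.6% of all tested genes higher and 9.25% lower in high K+. The mean log2 difference of the 9 genes had a median of 0.25, against 0.08 over all tested genes, and it was above 0 for 8 of the 9, beside 58.9% of all tested genes. The count of 4 was not stable: it was 7, 6 higher and 1 lower, when the samples of 0 h were left out, and 1 when samples were scaled to their spike-ins. The calls over all 15019 tested genes moved too, to 4845 higher and 1733 lower without 0 h and to 1896 and 2413 with the spike-ins.

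**Figure D1:**
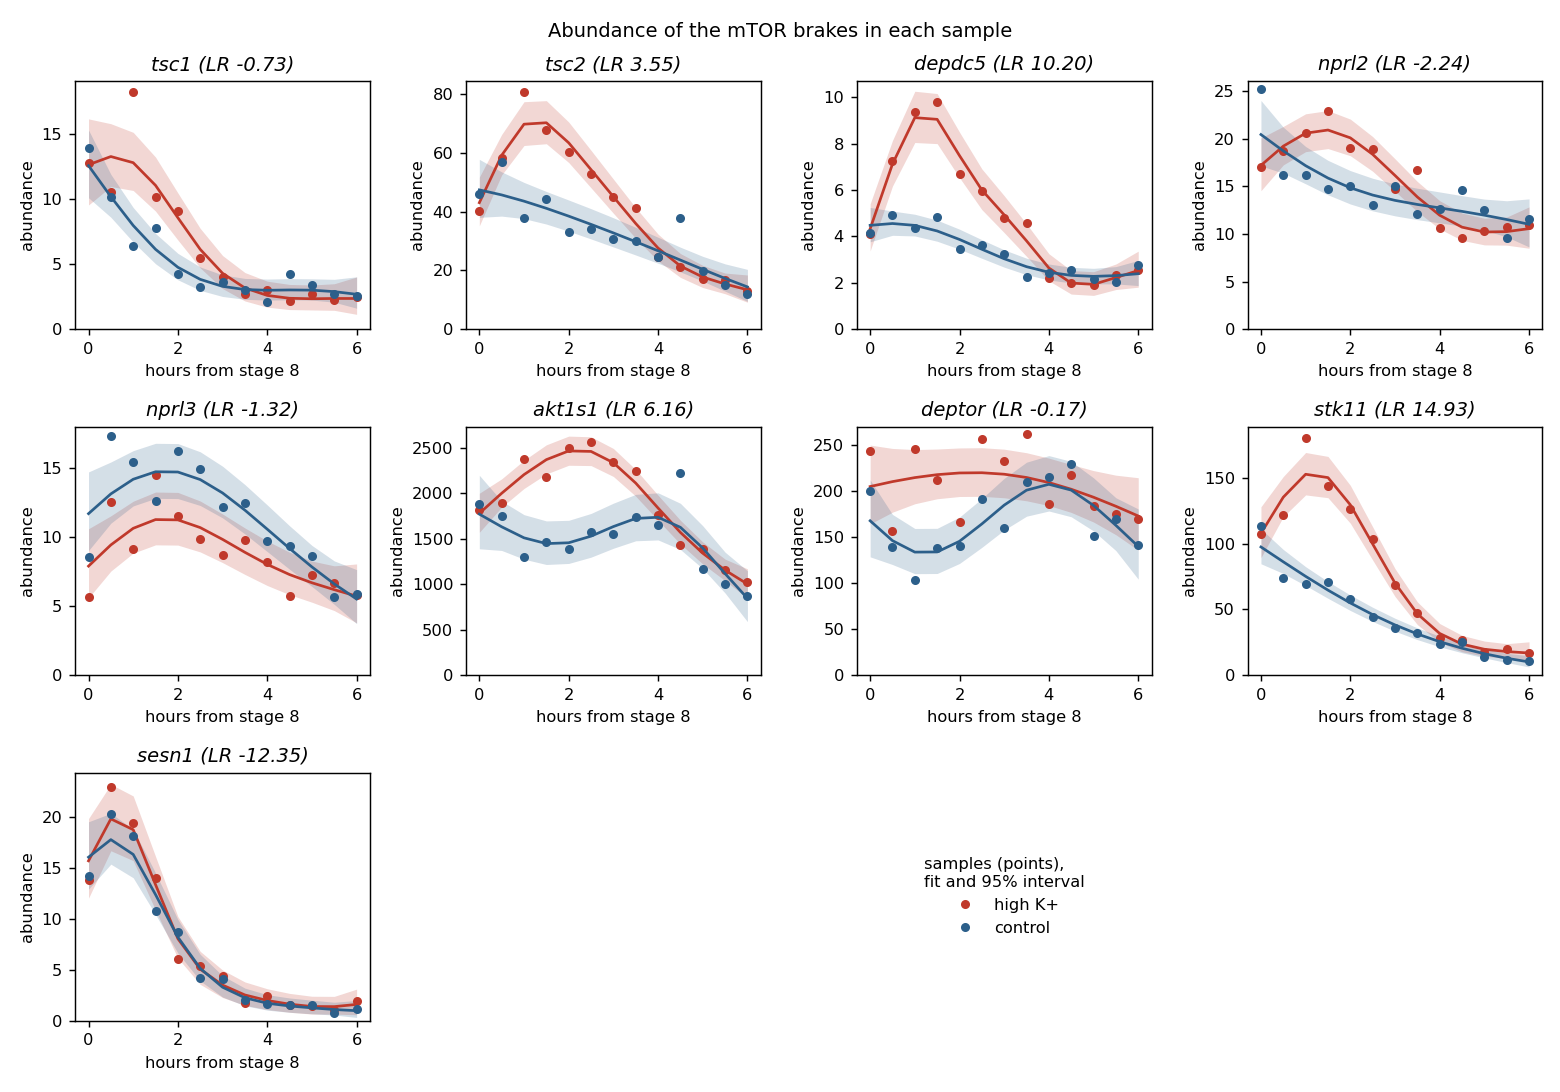
Abundance of the 9 genes (vertical axis, spike-in concentration scale) against hours from stage 8. Points are single samples in high K+ (red) and control (blue), and lines and bands are the fitted medians and their 95% intervals. The bands of *stk11* and *depdc5* stand apart from 0.5 to 3.5 h, while those of *nprl3* and of *sesn1* overlap at every time point.

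*stk11* encodes the kinase LKB1, which phosphorylates and switches on AMPK, and it had the highest LR of the 9 genes at 14.9. Its abundance ranged from 16.5 to 181 with a median of 68.9 in the high K+ samples, against 10.9 to 113 with a median of 36.2 in the control samples. At the first time point the pair was nearly level, with 108 in the high K+ sample and 113 in the control sample. One hour later the high K+ sample stood at 181 and the control sample at 69.1, a ratio of 2.61 and the widest gap of the course. Over the full ranges the groups overlapped, but at matched times the high K+ sample was higher at 12 of 13 time points, by 0.67 ± 0.45 on the log2 scale (SD, n = 13). The 95% intervals of the fitted curves were apart at 7 time points, from 0.5 to 3.5 h, with the high K+ curve above. Such intervals hold for single time points on the deposited scale, and how often they part among all tested genes is not given. Here and below, intervals that are apart describe the curves and are not a call. At 1 h the fitted median was 153 (interval 137 to 170) in high K+ and 75.3 (68.3 to 82.7) in control. *stk11* was also the only member called higher under all 4 scalings of the samples that were tried, with its lowest LR, 4.46, after scaling each sample to its total over genes under 10000.

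The TSC complex is formed by hamartin, the product of *tsc1*, and tuberin, the product of *tsc2*, which carries the GTPase activating domain for Rheb. *tsc2* was called higher in high K+ with an LR of 3.55. It ranged from 13.1 to 80.9 with a median of 41.2 in the high K+ samples, against 11.8 to 56.9 with a median of 33.3 in the control samples. In the first 2 samples the conditions were close, with 40.2 and 58.3 in high K+ and 45.9 and 56.9 in control. The gap opened at 1 h, where the high K+ sample had 80.9 and the control sample 37.9. The fitted intervals were apart from 1 to 3 h. The call of *tsc2* was lost under each of the 3 other scalings, where its LR lay between −3.17 and −1.20, and its LR of 3.55 is under the limit of 4.89 that the Bayesian information criterion sets.

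*tsc1* was not called, with an LR of −0.73, and passed narrowly without the samples of 0.5 h (LR 0.14) or of 1.5 h (LR 0.0079). It ranged from 2.13 to 18.2 with a median of 4.04 in the high K+ samples, and from 2.06 to 13.9 with a median of 3.64 in the control samples. Both conditions began near the same level, at 12.7 in high K+ and 13.9 in control, and ended there, at 2.47 in high K+ and 2.52 in control. Between them the widest gap was at 1 h, with 18.2 in high K+ against 6.37 in control, a ratio of 2.86, and at 2 h the high K+ sample had 9.03 against 4.23 in control. The fitted intervals were apart at 3 time points, 1 to 2 h, with high K+ above. *tsc2* transcripts were more abundant than those of *tsc1* in all 26 samples, with a median *tsc2* to *tsc1* ratio of 6.69 in high K+ and 5.96 in control.

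GATOR1 is built from the products of *depdc5*, *nprl2* and *nprl3*, and it stimulates GTP hydrolysis by the Rag GTPases. Of its 3 genes, *depdc5* was called higher in high K+ with an LR of 10.2, and the other 2 were not called. With the spike-in scaling the call of *depdc5* was lost (LR −2.26). It was expressed at a low level, from 1.89 to 9.80 with a median of 4.58 in the high K+ samples and from 2.02 to 4.92 with a median of 3.24 in the control samples. From 1 to 2 h, a window picked after the values were seen, all 3 high K+ samples, with 9.37, 9.80 and 6.72, lay above the highest control sample. The share of all tested genes that lay apart in this way is not given. The median log2 difference over all tested genes was itself between 0.04 and 0.48 in this window. The fitted intervals were apart from 0.5 to 3.5 h, and from 4 h on the high K+ sample was the lower at 4 of 5 time points.

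*nprl2* was not called, with an LR of −2.24. It ranged from 9.52 to 22.8 with a median of 16.7 in the high K+ samples, against 9.58 to 25.2 with a median of 14.6 in the control samples. The highest value of all belonged to the first control sample, at 25.2, where the log2 difference was −0.54. Without that time point the gene was called, with an LR of 1.82, and so it was without 3.5 h, with an LR of 0.56. Its fitted intervals were apart at 3 time points, 1.5 to 2.5 h, with high K+ above. Its mean log2 difference was 0.06 ± 0.39 (SD, n = 13), and this turned below 0 under each of the 3 other scalings.

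*nprl3*, the third gene of GATOR1, ranged from 5.61 to 14.5 with a median of 8.70 in the high K+ samples, against 5.66 to 17.3 with a median of 12.1 in the control samples. The high K+ sample was the lower at 11 of 13 time points, all but 1.5 and 5.5 h, and the mean log2 difference was −0.32 ± 0.29 (SD, n = 13). As deposited the gene was not called, with an LR of −1.32, but it passed as lower in high K+ without the samples of 0 h (LR 1.91) or of 1.5 h (LR 0.70). It was called lower in high K+ once the pairs were set to a median ratio of 1 (LR 3.45), and likewise when samples were scaled to the total over genes under 10000 (LR 7.57), and the high K+ sample was then the lower at all 13 time points. With the spike-in scaling its LR was −0.09. As deposited, its fitted intervals overlapped at all 13 time points. The ratio of *nprl3* to *depdc5* transcripts followed these courses, with a median of 1.81 in high K+ and 3.64 in control. It was lowest in the high K+ sample of 1 h at 0.976, the one sample of 26 in which *depdc5* was above *nprl3*. The proteins of GATOR1 were not measured.

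PRAS40, encoded by *akt1s1*, and DEPTOR are inhibitors that sit inside the mTOR complexes themselves. *akt1s1* was by far the most abundant of the 9 genes and was called higher in high K+ with an LR of 6.16. It ranged from 1017 to 2566 with a median of 1887 in the high K+ samples, against 870 to 2226 with a median of 1549 in the control samples. From 1 to 3 h the 5 high K+ samples lay between 2179 and 2566 and the 5 control samples between 1300 and 1573. The fitted intervals were apart at the same 5 time points. This window was picked after the values were seen, and the share of all tested genes that lay apart in it is not given. The median log2 difference over all tested genes was itself between 0.04 and 0.48 there. The highest control sample, 2226 at 4.5 h, stood against 1426 in high K+, and apart from 0 h this was the one time point at which the high K+ sample was the lower. The call was lost under each of the 3 other scalings, where the LR lay between −2.68 and −0.16.

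*deptor* (gene26900) was not called, with an LR of −0.17, and passed as higher in high K+ without the samples of 0 h (LR 0.14), 0.5 h (LR 0.90) or 5 h (LR 0.35). It ranged from 157 to 262 with a median of 212 in the high K+ samples, and from 103 to 230 with a median of 160 in the control samples. The high K+ sample was the higher at 11 of 13 time points, all but 4 and 4.5 h. The lowest control sample was that of 1 h, with 103 where the high K+ sample had 246. The mean log2 difference was 0.32 ± 0.36 (SD, n = 13), the same as that of *akt1s1*, which passed the rule. The fitted intervals were apart at 5 time points, 0.5 to 2.5 h, with high K+ above.

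*sesn1* encodes a sestrin, a stress-induced protein that holds mTORC1 back through the GATOR proteins. It had the lowest LR of the 9 genes, −12.3, so a shared curve was preferred by the widest margin. It ranged from 1.04 to 22.9 with a median of 4.42 in the high K+ samples, and from 0.773 to 20.3 with a median of 4.05 in the control samples. Both conditions were highest at 0.5 h, and the samples of the same time point stayed close through the fall that followed. The mean log2 difference was 0.11 ± 0.25 (SD, n = 13) as deposited, and it was 0.02 after scaling pairs to a median ratio of 1, −0.02 after spike-in scaling and −0.07 after scaling to the total.

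A linear model with the time point as a block (limma, Benjamini-Hochberg adjustment over all 15019 genes) gave a call to 5 of the 9 genes, where 39.5% of all tested genes were called, 27% higher and 12.5% lower in high K+. It called *stk11* (adjusted p = 0.000483), *deptor* (adjusted p = 0.0219), *depdc5* (adjusted p = 0.0274) and *akt1s1* (adjusted p = 0.0332) higher in high K+ and *nprl3* (adjusted p = 0.0113) lower. *tsc2* did not pass in this fit (adjusted p = 0.136). Thus *stk11*, *depdc5* and *akt1s1* were called by both methods, and *tsc2*, *deptor* and *nprl3* by one. Both methods used the same deposited values, and the block fit was not run under the other scalings.

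**Figure D2:**
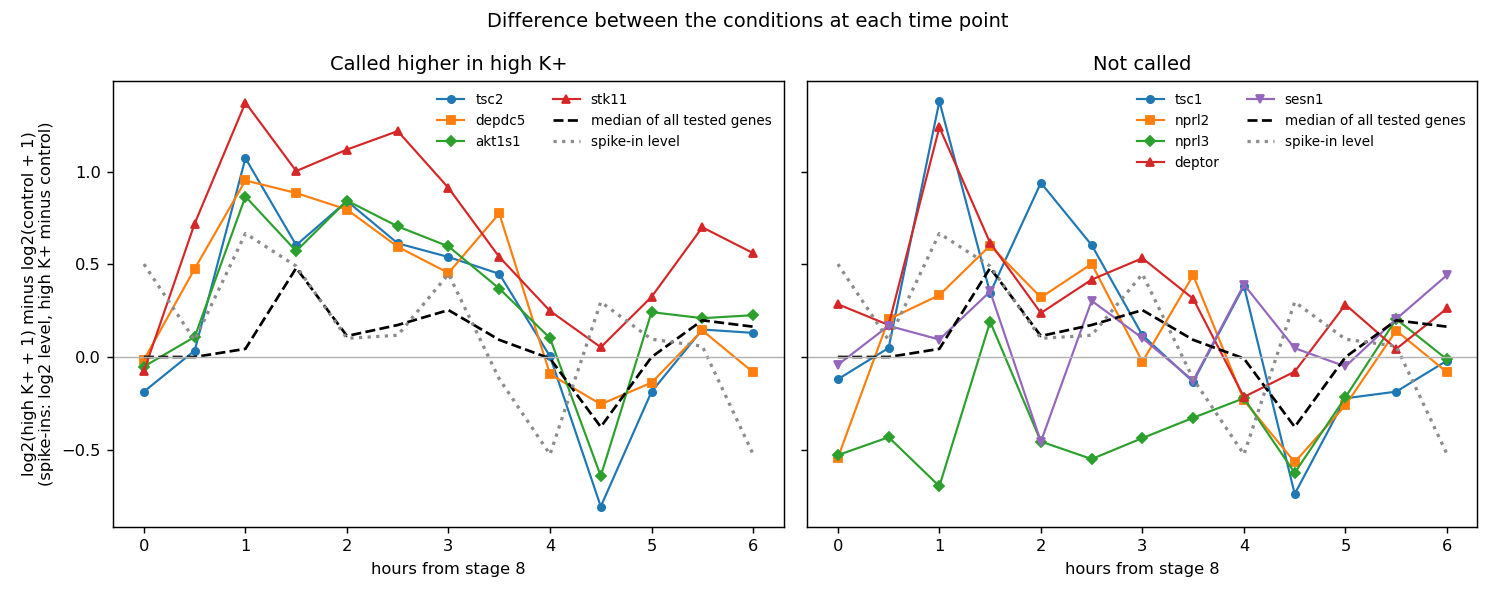
Log2 difference of abundance + 1, high K+ minus control, at each of the 13 time points, for the 4 genes called higher in high K+ (left) and the 5 not called (right). The dashed line is the median over all tested genes and the dotted line the difference of the spike-in level. The largest differences of *tsc1*, *tsc2*, *depdc5*, *akt1s1*, *deptor* and *stk11* fall at 1 h, and the dip at 4.5 h is shared with the median over all genes.

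The differences were next followed by time point. At 0 h the high K+ sample was higher for 1 of the 9 genes, *deptor*, where the median difference over all tested genes was 0. At 1 h the high K+ sample was higher for 8 of 9. There 6 genes, *tsc1*, *tsc2*, *depdc5*, *akt1s1*, *deptor* and *stk11*, had their largest log2 difference, between 0.87 and 1.38. This time point was picked after the values were seen. The shares of all tested genes that were higher, or had their largest difference, at these time points are not given. The median difference of the 9 genes at 1 h was 0.95, where the median over all tested genes was 0.04. The spike-in level was higher in the high K+ sample by 0.67 there, the widest such gap of the course. Relative to the spike-ins of these 2 samples, the log2 difference at 1 h was 0.71 for *stk11*, 0.79 for *tsc1*, 0.58 for *deptor*, 0.42 for *tsc2*, 0.39 for *depdc5* and 0.20 for *akt1s1*. On this scale *nprl2* stood at −0.30, *sesn1* at −0.54 and *nprl3* at −1.33, so that 6 of the 9 genes were higher in the high K+ sample, and the median over all tested genes was −0.44. The part of the spike-in level in the values of 1 h was not tested.

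At 1.5 h all 9 genes were higher in the high K+ sample, but so was the median over all tested genes, by 0.48. At 4.5 h 7 of the 9 genes were lower in the high K+ sample, with a median of −0.57, and the median over all tested genes was −0.38. At that time point 5 of the 9 genes, *tsc1*, *tsc2*, *depdc5*, *nprl2* and *akt1s1*, had their lowest difference of the course. The median over all tested genes was also at its lowest of the course there. Both 1.5 and 4.5 h were picked after the values were seen. The matching shares of all tested genes at them are not given, so the counts are no trait of the 9 genes. *stk11* was nearly level there, with 26.4 in the high K+ sample and 25.4 in the control sample.

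Over the first 6 time points the mean log2 difference was 0.89 for *stk11*, and over the last 7 it was 0.48. For *depdc5* these means were 0.62 and 0.11, for *tsc1* 0.53 and −0.11, and for *tsc2* 0.50 and 0.04. For *akt1s1* and *deptor*, the inhibitors inside the complexes, they were 0.51 and 0.16, and 0.49 and 0.16. With the spike-in scaling the later mean was the larger for both, with 0.18 and 0.20 for *akt1s1* and 0.17 and 0.20 for *deptor*. On that scale the means of *stk11* were nearly level, at 0.57 and 0.51. Those of *depdc5* were 0.35 and 0.13, those of *tsc1* 0.24 and −0.10, and those of *tsc2* 0.18 and 0.07. The difference between the early and the late part was itself tested with limma, and 0 of the 15019 genes passed, where 1970 had an unadjusted p under 0.05. Of the 9 genes, *tsc1* (unadjusted p = 0.0161, adjusted p = 0.304) and *depdc5* (unadjusted p = 0.0277, adjusted p = 0.337) were among those 1970, and none was called. With the course split after 7 time points, 101 of all tested genes passed and 2758 had an unadjusted p under 0.05. None of the 9 genes was called there either (limma, adjusted p from 0.17 to 0.87), but 6 of them, *depdc5*, *tsc1*, *tsc2*, *stk11*, *deptor* and *akt1s1*, had an unadjusted p under 0.05 (0.0168 to 0.0480).

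On the deposited scale 6 of the 9 genes were highest at a later time in high K+ than in control, as were 46.2% of all tested genes. *tsc1* and *stk11* had their highest high K+ sample at 1 h and their highest control sample at 0 h. *tsc2* peaked at 1 h in high K+, against 0.5 h in control, *depdc5* and *nprl3* at 1.5 h in high K+, against 0.5 h in control, and *nprl2* at 1.5 h in high K+, against 0 h in control. *akt1s1* and *deptor* were highest earlier in high K+, at 2.5 and 3.5 h, than in control, where both were highest at 4.5 h. The count of 6 depended on the scaling, which was varied after the values had been seen: it was 5 with pairs at a median ratio of 1 (34.4% of all tested genes), 4 with the total (34.2%) and 3 with the spike-in level (36.7%). *tsc1* and *tsc2* were highest later in high K+ under all 4.

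**Figure D3:**
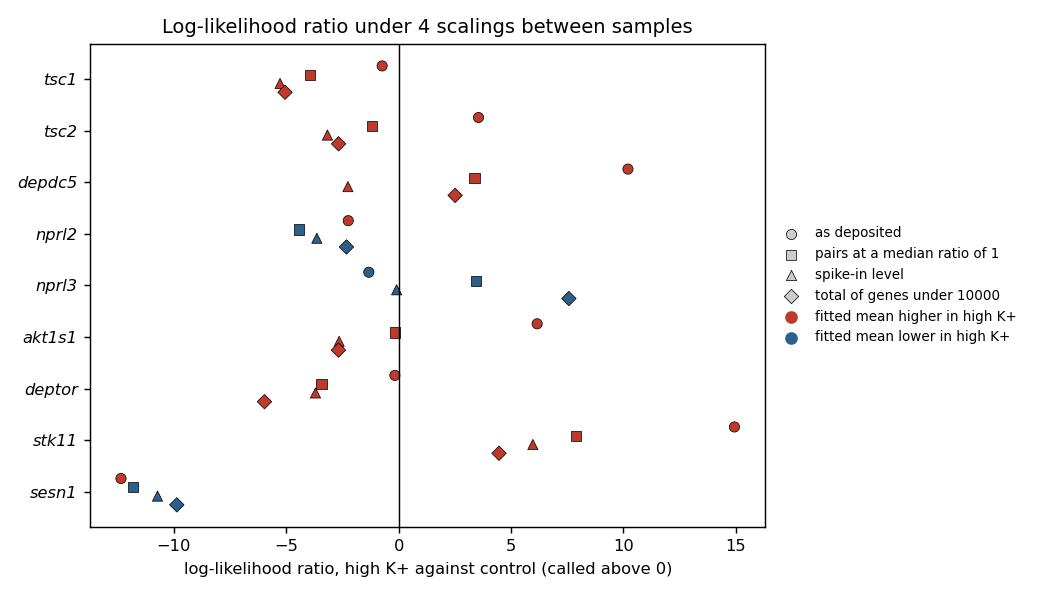
Log-likelihood ratio of each gene under 4 scalings between samples, with the call at values above 0 (vertical line). Red marks a fitted mean that is higher in high K+ and blue one that is lower. *stk11* stays right of the line under all 4, *depdc5* under 3, *tsc2* and *akt1s1* only as deposited, and *nprl3* is called, as lower, under 2.

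The scaling between samples decided most of the calls, and not in 1 direction. Pairs at a median ratio of 1 left *stk11* and *depdc5* called higher and *nprl3* lower, and so did the total over genes under 10000. The spike-in scaling left *stk11* alone. The median of the 9 mean log2 differences was 0.25 as deposited, 0.14 with pairs at a median ratio of 1, 0.12 with the spike-ins and 0.03 with the total, while that of all tested genes was 0.08, −0.01, −0.02 and −0.10 in the same order. Relative to all genes, the median of the 9 genes stood between 0.13 and 0.17 higher under the 4 scalings. Each scaling shifts every gene of a sample alike, so this difference could hardly change, and its steadiness is no separate support. The count of genes with a mean difference above 0 was 8 as deposited and 7, 6 and 5 under the other scalings in that order. The matching shares of all tested genes were 58.9%, 48.7%, 47.0% and 38.2%, so they fell as well. Among all tested genes the 4450 called higher and 1390 called lower as deposited became 2813 and 2570, 1896 and 2413, and 1955 and 3888.

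Most of these brakes fell as development went on, in both media. In high K+ 7 of the 9 genes were lower at 5 to 6 h than at 0 to 1 h (limma, adjusted p under 0.05, 3 samples in each window), all but *nprl3* and *deptor*. In control 8 of the 9 were, all but *deptor*. Of all tested genes, 76.6% changed in high K+, 21.1% upward and 55.5% downward, and 77.9% changed in control, 20.3% upward and 57.7% downward, so a fall was also the commoner course among all genes. A difference between the conditions in this change was called for 0 of the 9 genes (limma, adjusted p from 0.951 to 0.984) and for 0 of all tested genes (486 at an unadjusted p under 0.05).

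**Figure D4:**
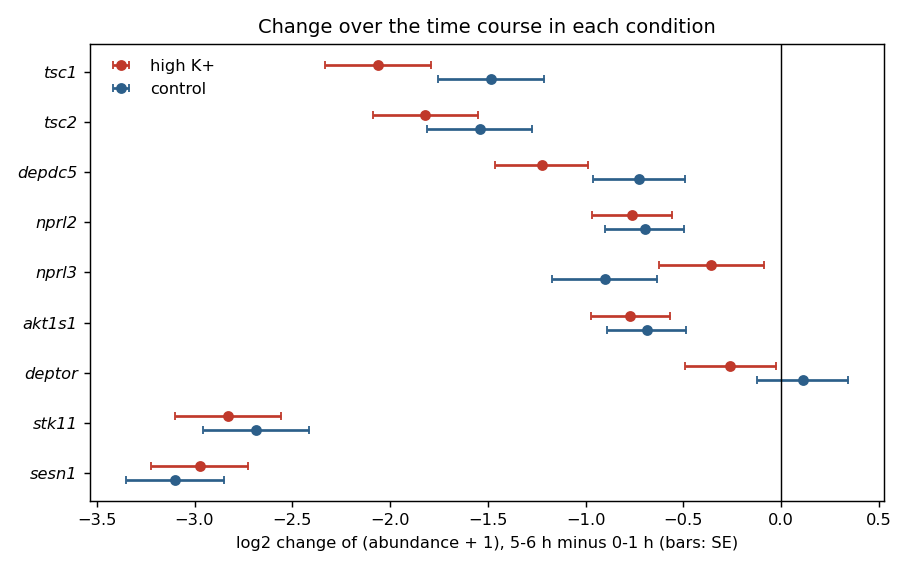
Log2 change of abundance + 1 (5 to 6 h minus 0 to 1 h) for each gene, in high K+ (red) and control (blue), with bars for the standard error of the limma fit. *sesn1* and *stk11* lie farthest to the left in both conditions, and *deptor* lies nearest to 0.

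*sesn1* and *stk11* fell most, with changes that overlapped within their errors in both conditions. The 1 added to each abundance understates the change of *sesn1*, whose mean fell from 18.7 to 1.48 in high K+ and from 17.5 to 1.17 in control. The mean of *stk11* fell from 137 to 18.0 in high K+ and from 85.4 to 12.2 in control. The log2 change of *sesn1* was −2.97 in high K+ and −3.10 in control (SE 0.25 each; limma, adjusted p = 3.57e-09 and 2.03e-09). *stk11* changed by −2.83 in high K+ and −2.68 in control (SE 0.27 each). The TSC genes came next in high K+, where *tsc1* changed by −2.06 and *tsc2* by −1.82, against −1.48 and −1.54 in control. *depdc5* changed by −1.22 in high K+ and −0.73 in control.

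The changes of *akt1s1* (−0.77 in high K+ and −0.69 in control) and *nprl2* (−0.76 in high K+ and −0.70 in control) were smaller, and in high K+ they no longer passed after scaling to the spike-ins (limma, adjusted p = 0.152 and 0.112). *nprl3* changed by −0.36 ± 0.27 (SE) in high K+, which did not pass (limma, adjusted p = 0.229), and by −0.90 ± 0.27 (SE) in control (limma, adjusted p = 0.00454). Leaving out the high K+ and control samples of 0 h brought *nprl3* past the threshold in high K+ too (limma, adjusted p = 0.0182). *deptor* changed by −0.26 in high K+ and 0.11 in control (SE 0.23 each; limma, adjusted p = 0.316 and 0.675), and it was the one gene of the 9 for which no change over time was called in either condition.

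The 9 genes covered a wide range of levels. By the median over all 26 samples the order was *akt1s1* at 1690, *deptor* at 185, *stk11* at 45.5, *tsc2* at 36.0, *nprl2* at 14.7, *nprl3* at 9.49, *sesn1* at 4.10, *tsc1* at 3.84 and *depdc5* at 3.53, all per transcript length. Of the neighbors in this order, only *akt1s1* and *deptor* had ranges that did not overlap. *deptor* was above *stk11*, and *tsc2* above *nprl2*, in every sample, although their ranges over the whole course met. *stk11* was above *tsc2* in 13 of 13 high K+ samples and 8 of 13 control samples, and *nprl2* above *nprl3* in 13 of 13 high K+ samples and 9 of 13 control samples. *sesn1*, *tsc1* and *depdc5* changed places from sample to sample.

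Over the 26 samples, which share a time course and so much of their variation, *stk11* and *tsc2* followed each other closely (Pearson r = 0.94 of log2 values). *deptor* stood apart, with r between −0.33 and 0.24 against every other member but *akt1s1* (r = 0.61). Among all tested genes with a symbol, the one most like each member by the same measure was *dip2b* for *stk11* (r = 0.99), *trim24* for *tsc2* (0.99), *znf687* for *tsc1* (0.98), *per2* for *depdc5* (0.96), *rab14* for *nprl2* (0.93), *uchl3* for *nprl3* (0.96), *pex19* for *akt1s1* (0.97), *lamtor1* for *deptor* (0.96) and *nfat5* for *sesn1* (0.99). *lamtor1*, which belongs to the complex that anchors the Rag GTPases at the lysosome, is the one gene of this pathway among them.

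The other genes of the pathway were counted by the same rule. Of 26 further tested genes that limit mTOR signaling, 7 were called higher and 4 lower in high K+, and their mean log2 differences had a median of 0.13. The highest LR values on this list were those of *prkaa1* (14.8), a catalytic subunit of AMPK, the kinase that LKB1 switches on, *sesn2* (11.2), a second sestrin, and *strada* (7.36), the pseudokinase partner of LKB1. *prkaa1* had a median of 661 in the high K+ samples and 399 in the control samples, *sesn2* 92.7 in high K+ and 52.8 in control, and *strada* 49.2 in high K+ and 35.1 in control. Each of these 3 was higher in the high K+ sample at 12 of 13 time points. The third sestrin, *sesn3*, was also called higher (LR 0.89). The 4 genes called lower were *prkag1*, *prkab1*, *cab39l* and *inpp4b*, with mean log2 differences of −0.32, −0.37, −0.39 and −0.41. Their LR values were low, at 1.63, 0.27, 0.19 and 0.46, all under the limit that the Bayesian information criterion sets. The median of *prkag1* was higher in the high K+ samples (5.17) than in the control samples (4.10), although its high K+ sample was higher at only 4 of 13 time points. *prkag1* and *prkab1* encode further subunits of AMPK, and *cab39l* a scaffold protein that binds LKB1. Both directions were thus found among the genes around LKB1 and AMPK, the lower one only in calls of low LR. These 4, like *sesn3*, were named after their values were seen.

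Of 41 tested genes that promote mTOR signaling, 18 were called higher and 2 lower, and the median difference was 0.23, close to that of the brakes. The highest LR values were those of *sec13* (13.9), a component of GATOR2, which counters GATOR1, *telo2* (10.5), which helps to assemble kinases of the mTOR family, and *lamtor2* (10.0), another part of the lysosomal anchor. All 3 were higher in the high K+ sample at 13 of 13 time points. Of 16 tested targets of the pathway, 7 were called higher and 1 lower with a median of 0.08, led by *atg13* (11.4), a component of the autophagy kinase complex, *eif4b* (7.62), a translation initiation factor, and *eif4ebp2* (6.18), a repressor of translation initiation. Thus genes on both sides of the pathway were among those called higher as deposited, at 44.4% of the brakes, 26.9% of the other limiting genes, 43.9% of the promoting genes and 43.8% of the targets, beside 29.6% of all tested genes. The study had already named *lamtor2* and *atg13*, with other genes on these lists, as mTOR pathway members activated in high K+, from the same samples. Their calls, and the shares that count them, are thus no separate support. The further lists were not counted under the other scalings.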

How the data were processed

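RNA of whole *Xenopus tropicalis* embryos was measured in 26 samples, 1 high K+ and 1 control sample at each of 13 time points. The authors used STAR to align stranded reads to the Xt9.1 genome and RSEM to obtain a TPM per isoform. They then adjusted each isoform for its dinucleotide content, with 1 linear model per condition fitted to the ERCC spike-ins, and added up the isoforms of a gene. The signal deposited is the resulting abundance for 34192 genes and 92 spike-ins, not read counts and not rescaled to a common total. The depth per sample is unknown, so no counting interval was given. All 26 columns belong to these samples, and 0 columns of other samples were used. The assembly of the annotation table used here differs from Xt9.1, so no coordinates are given, and promoter motifs were not searched.

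Genes above 0.4 in 6 consecutive samples of a condition were tested. Values were transformed as the square root of 1 + 1000 times abundance over its maximum and fitted with a Gaussian process (Matern 5/2 kernel) in Python 3.11.15 (numba 0.67.0, numpy 2.4.6, pandas 2.3.3, scipy 1.17.1). The direction of a call was that of the fitted medians, and intervals are 95% intervals of the fitted curves. limma 3.58.1 in R 4.3.3 was fitted to log2(abundance + 1), and this pseudocount understates the changes of low genes. limma p-values were adjusted over all tested genes by Benjamini-Hochberg, and the Gaussian process calls, which rest on the LR, carry no p-value. Both were run on 15019 genes, and under the other filters on 14461 and 25597. The scripts were tested on simulated data. Figures were drawn with matplotlib 3.10.9.

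Samples were paired by time point, as the labels give it. Deviations from the condition means, with no time trend removed, correlated within each of the 13 pairs (0.57 to 0.92). The part of the shared time course in this was not tested. The genes, the further lists and the tests were chosen with earlier results of these data known. 1 of the 10 genes chosen is not reported here. The other 9 are named, with at most 3 called genes of the highest LR on each further list and the tested gene with a symbol most like each of the 9. The further lists hold genes that limit or promote mTOR signaling and its targets, and markers of maternal RNA and of the germ layers. The alternatives were 3 other scalings, other filters, pseudocounts, transform, mean, threshold and split, limma with and without the block, and leaving out each time point.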

Additional observations from a re-analysis of the deposited data

How the results depend on the processing

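Between high K+ and control, 4 genes were called as deposited. The spike-in scaling gave 1 call (*stk11*), each of the other 2 scalings gave 3 (*stk11* and *depdc5* higher, *nprl3* lower), and the Bayesian information criterion gave 3 (all of the 4 but *tsc2*). Subtracting the mean before the fit gave 8 calls, 7 higher and 1 lower in high K+. Leaving out 1 time point gave 4 to 7 calls, and the most, 7, came without 0 h. Of all 15019 tested genes, 4450 were called higher and 1390 lower as deposited. These counts became 2257 and 295 with the Bayesian information criterion and 5769 and 2673 with the mean subtracted. Without 0 h they were 4845 and 1733. The block decided limma's calls: 5 of 9 passed with the time point as a block and 0 of 9 without it (745 of all tested genes were called without it, and 1 of the 9, *deptor*, had an unadjusted p under 0.05, at 0.0224). The fit without the block held no term for time, so the change over the course entered its spread. The SE of *stk11* was 0.12 with the block and 0.44 without it. The 0 of 9 is therefore no evidence about the paired differences. The causes of the other changes in the counts were not tested. The median of the 9 mean log2 differences lay between 0.18 and 0.34 when 1 time point was left out. The count over time was 7 to 8 in high K+ and 8 to 8 in control without 1 time point, and 5 in high K+ with the spike-in scaling. With that scaling 63.3% of all tested genes changed in high K+, 42.8% downward, against 76.6% and 55.5% as deposited.

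The fitted direction turned round for *nprl2*, with an LR of −4.45 with pairs at a median ratio of 1, −3.64 with the spike-ins and −2.32 with the total, and for *sesn1*, with −11.8, −10.7 and −9.86. Changes over time that turned round were not called on either side: in control, the log2 change of *deptor* was −0.19 with the spike-ins and between −0.12 and 0.35 without 1 time point. The early minus late difference was −0.021 for *nprl2*, −0.016 for *akt1s1* and −0.032 for *deptor* with the spike-ins, and between −0.13 and 0.031 for *sesn1* without 1 time point. With 1 time course in each condition and unknown depth, no p-value here measures the spread between clutches.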
